A study of Mus musculus with 36 samples.

Results

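The genes described here are 10 members of the BCL2 family whose transcription is not, as a rule, counted among the direct targets of p53: the anti-apoptotic genes Bcl2, Bcl2l1, Bcl2l2 and Mcl1, the pore-forming effector Bak1 and the BH3-only genes Bid, Bad, Bcl2l11, Bmf and Hrk. They were chosen by symbol, and each matched 1 of the 46603 genes in the count tables. The libraries came from mouse embryos of strain C57Bl/6J at 2 stages, with 3 libraries in each of 6 groups. The labels give the tissue as cortex at both stages, while the study describes neocortex at E12.5 and the telencephalic vesicles at E10.5. At E12.5 each library was made from 1 embryo, of genotype Chd8 +/+ (wildtype), Chd8 +/- (1 null allele), Chd8 neo/neo (2 copies of a hypomorphic allele) or Chd8 neo/- (1 hypomorphic and 1 null allele). At E10.5 each library held pooled RNA of 2 embryos, either sox1-Cre; Chd8f/f conditional knockouts (cKO) or controls (Ctrl) that the labels describe as a combination of Chd8f/f and Chd8 f/+. The neo allele carries a neomycin cassette downstream of a loxP-flanked exon, which lowers its output, the null allele lacks that exon in every tissue, and Sox1-Cre removes it in early neural progenitors, so that cells outside the neural lineage of a cKO embryo keep Chd8. Of the Ctrl embryos, the labels do not say which carried 1 and which carried 2 floxed alleles, or whether any carried Cre.

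BCL2 family proteins decide whether the outer mitochondrial membrane is breached during intrinsic apoptosis. BAK1 and its relative BAX form the pores, the anti-apoptotic proteins hold them in check, and the BH3-only proteins relay damage, loss of growth factors or detachment by binding either side. MCL1 and BCL-xL, the main product of Bcl2l1, are known for keeping neural progenitors and newborn neurons alive, in that order, while Hrk, Bcl2l11 and Bbc3 are known for neuronal death after trophic support is withdrawn. The question addressed by the data is whether lowering Chd8 changed the mRNA of these genes, at 3 reduced doses at E12.5 and after neural deletion at E10.5. Bbc3, Pmaip1 and Bax, the family genes that p53 activates directly, were measured in the same libraries.

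The bases just before the transcription start are shown for the 3 genes whose mRNA passed edgeR's test in the cKO, and for Bcl2l11, whose window held a FOXO motif. Each window has 250 bases, read 5′ to 3′ on the strand of the gene from RefSeq promoters of build GRCm38.p6. Capitals mark the GC box GGGCGG, on either strand, in the first 3 and the FOXO motif GTAAACA in Bcl2l11.
Bcl2 promoter, chr1:106714291-106714540, minus strand: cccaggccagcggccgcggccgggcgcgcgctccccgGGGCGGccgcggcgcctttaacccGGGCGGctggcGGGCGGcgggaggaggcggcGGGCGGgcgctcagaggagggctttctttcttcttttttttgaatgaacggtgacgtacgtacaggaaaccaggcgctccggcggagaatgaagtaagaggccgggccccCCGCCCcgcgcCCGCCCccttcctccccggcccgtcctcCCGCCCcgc
Bak1 promoter, chr17:27028628-27028877, minus strand: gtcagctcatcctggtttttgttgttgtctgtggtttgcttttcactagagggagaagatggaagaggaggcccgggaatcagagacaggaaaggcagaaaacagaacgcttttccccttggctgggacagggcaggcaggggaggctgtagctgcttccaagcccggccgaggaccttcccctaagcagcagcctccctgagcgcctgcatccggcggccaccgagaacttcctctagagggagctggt
Hrk promoter, chr5:118169514-118169763, plus strand: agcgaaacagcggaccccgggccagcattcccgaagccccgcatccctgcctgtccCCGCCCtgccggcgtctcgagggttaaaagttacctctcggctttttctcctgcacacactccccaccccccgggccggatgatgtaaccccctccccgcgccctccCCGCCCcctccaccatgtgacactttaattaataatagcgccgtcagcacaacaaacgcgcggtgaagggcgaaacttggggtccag
Bcl2l11 promoter, chr2:128125788-128126037, plus strand: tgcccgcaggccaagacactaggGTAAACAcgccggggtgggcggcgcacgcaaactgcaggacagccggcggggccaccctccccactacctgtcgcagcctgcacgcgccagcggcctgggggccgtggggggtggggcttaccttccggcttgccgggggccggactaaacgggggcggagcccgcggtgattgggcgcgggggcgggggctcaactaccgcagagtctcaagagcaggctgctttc

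The Bcl2 window held 7 GC boxes at a G+C content of 74.8%, the Hrk window 2 at 63.2%, and the Bak1 window 0 at 58.4%, against a median G+C content of 52.4% over all promoters. Of 32851 promoter windows of the same length, 32.7% held a GC box. All 10 members matched a promoter, in 16 windows, of which 8 held a GC box. The FOXO motif was found in 1 of the 16 windows, that of Bcl2l11, and in 3.17% of all promoters. The p53 half-site, searched by its consensus on both strands, was found in 1 of the 16, a Bmf window, and in 7.13% of all promoters, while the E2F motifs TTTGGCGC and TTTCGCGC were found in 1 Bcl2l1 window and in 0.654% of all promoters. These matches describe letters in the windows and not binding.

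Sequencing was deep, with 38774591 to 61051667 counted fragments in a library at E12.5 and 49632937 to 68488879 at E10.5. Chd8, counted over all its exons and so not limited to the deleted one, was at 237, 235 and 239 CPM (counts per 1000000 counted fragments of the library, after scaling) in Chd8 +/+, 165, 170.2 and 165 in Chd8 +/-, 213, 203 and 211 in the Chd8 neo/neo group and 158, 147 and 142 in Chd8 neo/-. It was at 160.0, 168 and 184 CPM in Ctrl and 120.5, 125 and 116 in cKO. At E12.5 the counts were higher in Chd8 neo/neo than in Chd8 +/-, whereas the study reported less full-length CHD8 protein in Chd8 neo/neo. By quantitative RT-PCR in younger embryos it also reported a larger fall of Chd8 transcripts in Chd8 neo/neo. Markers of the telencephalon were present in every group, and all 10 members passed the filter on low counts at both stages. The libraries differed in sex: Xist marked 4 of the 12 E12.5 embryos as female, and at E10.5 the Ctrl pools 1 and 3 held Xist at 1779 and 2141 CPM, Ctrl pool 2 at 3.09 CPM, and the cKO pools at 708 to 1069 CPM with Y-linked transcripts also present.

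Per length, as RPKM (CPM divided by the exon length in units of 1000 bases), Mcl1 was the most abundant member in every group. In Chd8 +/+ cortex at E12.5 its level was 51.9 ± 0.695 RPKM (SD, n = 3), followed by Bcl2l1 at 23.3 ± 1.70 and Bak1 at 13.9 ± 0.682. Bad, Bcl2l2, Bmf and Bcl2l11 followed at means of 9.79, 6.05, 4.96 and 3.53 RPKM, and Hrk came last at 0.561 ± 0.144. Neighbours in this order were separated in all libraries except Bcl2 and Bid, at 2.78 and 2.70 RPKM, whose ranges overlapped. The anti-apoptotic genes made up 70.3% ± 0.462 of the summed level of the 10 genes, and Mcl1 alone 43.5% ± 0.322.

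At E10.5 the order in Ctrl was different below Mcl1, which stood at 55.6 ± 2.23 RPKM. Bak1 came next at 22.1 ± 0.639 RPKM, and Bad, Bcl2l1 and Bmf followed at 9.66, 9.46 and 9.31, with overlapping ranges between neighbours. The anti-apoptotic genes made up 58.2% ± 0.782 of the sum, the BH3-only genes 23.9% ± 0.214 and Bak1 17.8% ± 0.574. Side by side, mean CPM in the E12.5 wildtype was 2.46 times that of the E10.5 Ctrl for Bcl2l1, 3.38 times for Hrk and 1.67 times for Bcl2, whereas the E10.5 mean was the higher one for Bmf (1.88 times), Bcl2l11 (1.72), Bid (1.65) and Bak1 (1.59). Mcl1 was at 177 and 190.0 CPM and Bad at 19.7 and 19.4 CPM. The stages were counted in separate tables and scaled apart, so stage, dissected tissue, pooling and batch cannot be told apart and no test was made.

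**Figure D1:**
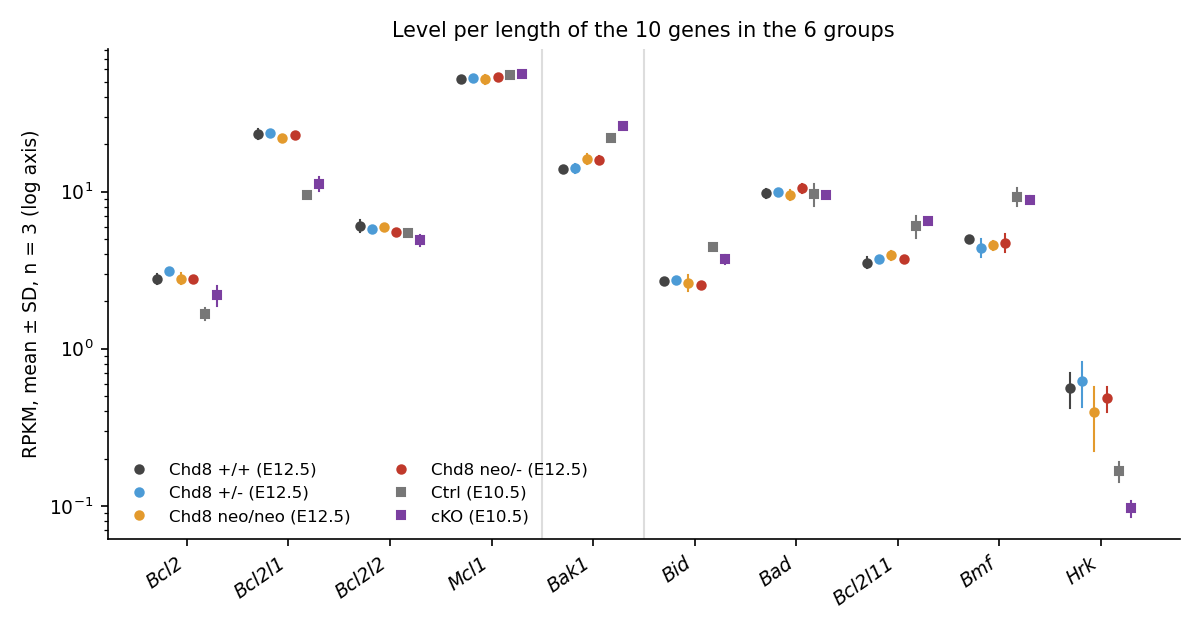
Level per length (RPKM on a log axis, mean ± SD, n = 3) of the 10 genes in the 4 genotypes at E12.5 (circles) and in Ctrl and cKO at E10.5 (squares). Mcl1 lies highest in every group at 51.8 to 56.3 RPKM, Bcl2l1 and Hrk lie lower at E10.5 and Bak1, Bid, Bcl2l11 and Bmf higher.

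In the cKO at E10.5, Bcl2 and Bak1 rose, Hrk fell, and the other 7 members did not pass edgeR's quasi-likelihood test. DESeq2 called 4 members, Bcl2, Bak1, Bcl2l1 and Bid, and gave Hrk no adjusted p. Over all genes DESeq2 called 2716 of the 14876 to which it gave an adjusted p. The changes were small for Bcl2 and Bak1, at 1.32-fold (95% interval 1.11 to 1.57) and 1.19-fold (1.08 to 1.30), and larger for Hrk, at 0.580-fold (0.421 to 0.800) of a low level. These 3 of 10 called members stand against 11.4% of all 18435 genes tested, with 5.75% called higher and 5.70% called lower. The libraries of the 2 groups did not overlap for 6 of the 10 members, against 32.2% of all genes, and 5 of the 10 had an unadjusted p under 0.05, against 27.4%. The median log2 change of the 10 was -0.0066, beside -0.0019 over all genes, and the median size of the change without its sign was 0.20 on the log2 scale, beside 0.16. Libraries were bulk tissue, in which fewer cells of a type and less RNA per cell cannot be told apart.

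Bcl2, the founding anti-apoptotic gene of the family, was at 13.7, 15.9 and 16.1 CPM in Ctrl and 16.9, 20.8 and 22.7 CPM in cKO. All cKO libraries lay above all Ctrl libraries, though the lowest cKO library was close to the highest Ctrl library. The log2 change was 0.40 ± 0.11 (SE), with an adjusted p of 0.0449 by edgeR's quasi-likelihood test and Benjamini-Hochberg adjustment. It did not pass when cKO library 2 or 3 or Ctrl library 1 or 3 was left out, with an edgeR adjusted p of 0.169, 0.170, 0.123 and 0.0858.

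Bcl2l1 encodes BCL-xL and was at 43.0, 42.5 and 44.7 CPM in Ctrl and 45.7, 53.1 and 55.8 CPM in cKO. Its cKO libraries were again all above the Ctrl libraries, with 1 of them within about 1 CPM of the Ctrl range. The log2 difference of 0.25 ± 0.077 had an edgeR adjusted p of 0.0613, which did not pass, whereas DESeq2 gave 0.0300, edgeR with no filter on low counts 0.0150, and edgeR with a term for the replicate number 0.0398. Leaving out cKO library 1 gave a log2 difference of 0.33 with an edgeR adjusted p of 0.0173. Mcl1, which encodes a short-lived anti-apoptotic protein, was at 182, 197 and 192 CPM in Ctrl and 189, 189 and 199.8 CPM in cKO. The groups overlapped, and the 95% interval of its log2 difference ran from -0.11 to 0.14. Bcl2l2, which encodes BCL-W, was at 24.5, 24 and 24.8 CPM in Ctrl and 23.9, 20.5 and 21.2 CPM in cKO, a log2 difference of -0.16 (interval -0.34 to 0.015) with an edgeR adjusted p of 0.224. It shares 13.3% of its exon bases with Gm20521 on the same strand. Bcl2l2 lies on the same chromosome as Chd8, 2.63 Mb away, and the Ctrl embryos carried floxed alleles as well. Whether linkage has a part in the values of Bcl2l2 was not tested.

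Bak1, which forms pores in the outer mitochondrial membrane, was at 53.6, 54.4 and 51.5 CPM in Ctrl and 61.3, 61.7 and 66.0 CPM in cKO. The gap between the groups was wider than the range within either. Its log2 change was 0.24 ± 0.059, with an edgeR adjusted p of 0.0240. The value did not pass without cKO library 2 or 3 or Ctrl library 3 (edgeR adjusted p of 0.0910, 0.115 and 0.106), at log2 changes of 0.26, 0.21 and 0.22. Of the exon bases of Bak1, 14.8% are shared with Ggnbp1 on the opposite strand. Ggnbp1 was at 5.75 CPM in Ctrl and 4.68 CPM in cKO, with a log2 difference of -0.29 in the other direction from that of Bak1.

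Of the BH3-only genes edgeR called Hrk and DESeq2 called Bid. Hrk, which is expressed in neurons and sequesters BCL-xL, was at 0.956, 0.796 and 1.07 CPM in Ctrl and 0.489, 0.614 and 0.535 CPM in cKO, from 50, 40 and 60 counted fragments and 29, 39 and 36. The groups did not overlap in CPM, at a level of fewer than 100 fragments in each library. The log2 change was -0.79 ± 0.21 with an edgeR adjusted p of 0.0362. It passed without Ctrl library 2 (0.0258), and without any other single library the edgeR adjusted p was 0.0753 to 0.124, with log2 changes between -0.88 and -0.68. DESeq2 gave Hrk no adjusted p, and a term for the replicate number gave 0.0533 with edgeR.

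Bid, which caspase-8 cleaves to link death receptors to mitochondria, was at 16, 15.6 and 16.1 CPM in Ctrl and 14.2, 12.8 and 12.6 CPM in cKO. All cKO libraries lay below all Ctrl libraries. The log2 difference of -0.27 ± 0.083 had an edgeR adjusted p of 0.0627 and a DESeq2 adjusted p of 0.0365. Bid shares 17.7% of its exon bases with Bcl2l13 on the opposite strand, which was at 138 to 141 CPM in Ctrl and 145 to 158 CPM in cKO. Bad, whose activity is set by phosphorylation, ranged from 16.9 to 22.8 CPM in Ctrl and from 18.3 to 19.6 in cKO, with a log2 interval of -0.27 to 0.20. Of its exon bases, 25.8% are shared with Gpr137 on the opposite strand. Bcl2l11, which encodes BIM and is a known target of FOXO factors, was at 42.3, 57.3 and 46.4 CPM in Ctrl and 53.9, 52.8 and 48.8 CPM in cKO. Its groups overlapped, and the log2 difference of 0.092 had an interval of -0.13 to 0.32. Without Ctrl library 1 the difference was 9.02e-04 and without Ctrl library 2 it was 0.23, with edgeR adjusted p of 0.997 and 0.0660. Bmf, linked to detachment from the cytoskeleton, was at 41.8 to 53.7 CPM in Ctrl and 45.3 to 49.5 CPM in cKO, with a log2 difference of -0.064 and an interval of -0.26 to 0.13.

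**Figure D2:**
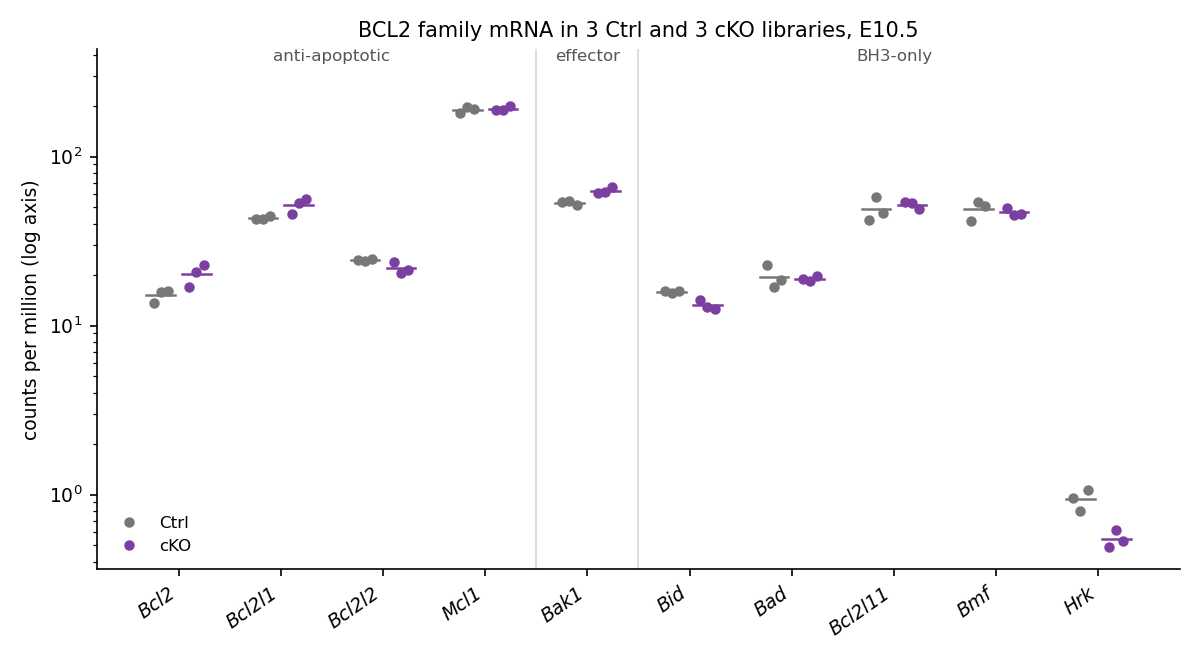
CPM (log axis) of the 10 genes in each of 3 Ctrl (grey) and 3 cKO (purple) libraries at E10.5, with a bar at the group mean. The cKO libraries lie above all Ctrl libraries for Bcl2, Bcl2l1 and Bak1 and below them for Bcl2l2, Bid and Hrk, and the groups overlap for Mcl1, Bad, Bcl2l11 and Bmf.

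Summed by role and per length, Bak1 took 17.2 to 18.4% of the level of the 10 genes in the Ctrl libraries and 20 to 20.5% in the cKO libraries. The BH3-only genes took 23.8 to 24.2% in Ctrl and 21.1 to 23.3% in cKO, and the anti-apoptotic genes 57.4 to 59.0% and 56.8 to 58.3%. The shares of Bak1 and of the BH3-only genes did not overlap between the groups and those of the anti-apoptotic genes did, with no test made. Shares sum to the whole, so that a higher level of Bak1 lowers the others. The summed level of the BH3-only genes itself overlapped, at 29.3, 30.3 and 29.5 RPKM in Ctrl and 29.7, 28 and 28.2 RPKM in cKO. Mcl1 remained the largest single share at 43.5% ± 0.277 in cKO, beside 44.8% ± 0.803 in Ctrl.

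The plot of adjusted p by fit shows how near the threshold these genes lay. Bak1 passed in 8 and Bcl2 in 7 of 11 other fits, and Hrk in 4 of the 10 that gave it an adjusted p. Bcl2l1 passed in 4 of 11 and Bid in 1 of 11, while the log2 change of each of these 5 genes kept its sign in every fit. The number of all genes called by edgeR, 2110 with every library, was 538 without cKO library 2, 826 without cKO library 3 and 951 without Ctrl library 3, 1650 and 1652 without cKO library 1 and Ctrl library 1, and 2483 without Ctrl library 2. With the summed level of Y-linked transcripts as a covariate, a fit chosen after the data were seen, the edgeR adjusted p was 0.0460 for Bcl2, 0.0233 for Bak1 and 0.0405 for Hrk.

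**Figure D3:**
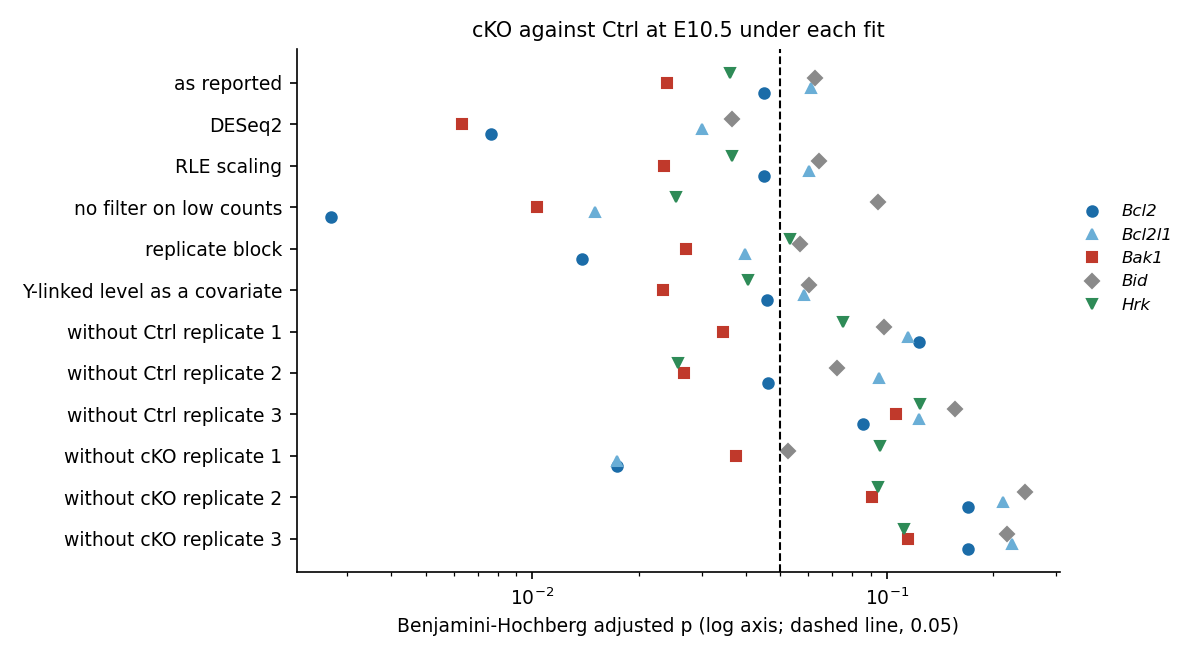
Benjamini-Hochberg adjusted p (log axis) of 5 genes for cKO against Ctrl as reported and under 11 other fits, with a dashed line at 0.05. Bak1 passes in 8 of the 11, and Bcl2, Bak1 and Hrk all lie above the line without cKO replicate 2 or 3 or Ctrl replicate 3. Hrk has no DESeq2 value.

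Markers of other cell types moved between the same libraries. Of 8 markers of mesenchyme and meninges, 3 rose in cKO (Col3a1, Pdgfra and Col1a2), and their summed level was 720.0 to 809 CPM in Ctrl and 901 to 1097 CPM in cKO. Among the other lists, Cdh5 of 6 endothelial and Cx3cr1 of 7 microglial markers rose and Gsx2 of 6 ventral telencephalic markers fell. The summed neuronal markers overlapped, at 221 to 411 CPM in Ctrl and 261 to 369 CPM in cKO, and Neurod6 was at the floor in both. The part of these cells in the changes of Bcl2, Bak1 and Hrk was not tested.

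Bbc3, Pmaip1 and Bax all rose in the cKO. Bbc3, which encodes PUMA, was at 12.3, 12.8 and 11.2 CPM in Ctrl and 25, 22 and 22.1 CPM in cKO, a log2 change of 0.93 (edgeR adjusted p of 1.99e-04). Pmaip1, which encodes NOXA, changed by 1.40 on the log2 scale and Bax by 0.32 (edgeR adjusted p of 2.31e-04 and 0.0172). The changes of Bbc3 and Pmaip1 exceeded the largest rise among the 10 members, the 0.40 of Bcl2, and that of Bax lay between Bak1 and Bcl2; the difference between the gene groups was not tested. At E12.5 none of the 3 was called in any genotype by edgeR, with unadjusted p under 0.05 for Bbc3 and Pmaip1 in Chd8 neo/neo against wildtype and 0 of the 3 in the other 2 mutants, and DESeq2 called 0 of the 3 in each. In Chd8 neo/neo against wildtype 25.2% of all genes had an unadjusted edgeR p under 0.05.

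**Figure D4:**
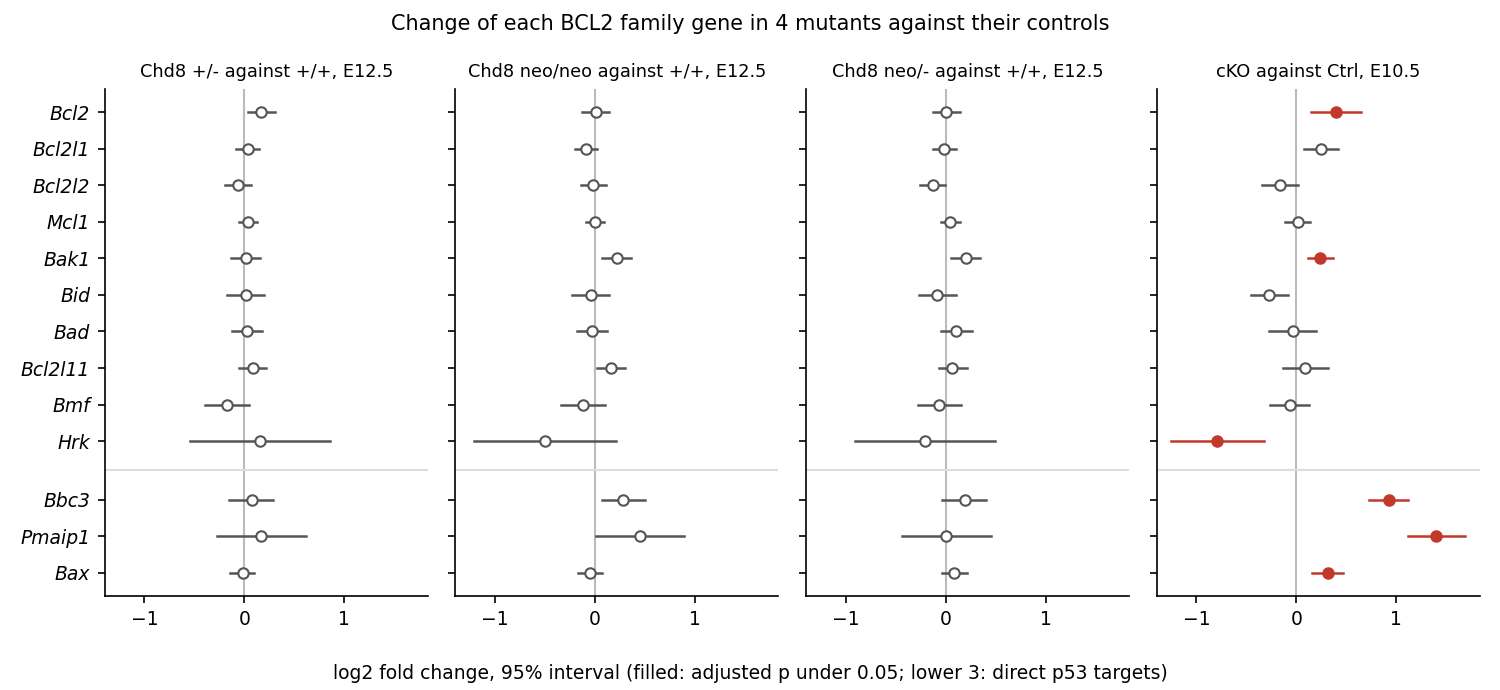
Log2 fold change with its 95% interval for the 10 genes and, under the line, the direct p53 targets Bbc3, Pmaip1 and Bax, in 4 mutant groups against their controls. Filled red points have an edgeR adjusted p under 0.05, and they occur here in the cKO alone, for Bcl2, Bak1, Hrk, Bbc3, Pmaip1 and Bax.

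At E12.5 edgeR called no member in any of the 3 mutant genotypes, which were all compared with the same 3 wildtype libraries. In Chd8 +/- edgeR called 0 of 10, against 0.0213% of 18810 genes tested, in Chd8 neo/neo 0 of 10 against 8.16%, and in Chd8 neo/- 0 of 10 against 11.5%. Unadjusted p was under 0.05 for 1, 2 and 2 members, against 6.33, 25.2 and 26.5% of all genes, and DESeq2 called 0, 1 (Bak1) and 0 members. Over all genes with an adjusted p, DESeq2 called 15 of 16799, 2285 of 13757 and 2603 of 14366, in the same order. The median log2 differences of the 10 were 0.032, -0.023 and -0.0049. Apart from Hrk, the 95% intervals of the log2 differences lay between -0.39 and 0.36 for all members in these 3 comparisons.

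Bak1 came nearest to the threshold. It was at 32.5, 32.5 and 35.3 CPM in wildtype, 34.5, 35.6 and 31.5 in Chd8 +/-, 38.1, 42.0 and 36.5 in the Chd8 neo/neo group and 36.9, 40.9 and 37.2 in Chd8 neo/-. All libraries of both hypomorphs lay above all wildtype and Chd8 +/- libraries, and the Chd8 +/- libraries overlapped the wildtype. The log2 difference from wildtype was 0.22 ± 0.067 for Chd8 neo/neo (edgeR adjusted p of 0.0581) and 0.20 ± 0.067 for Chd8 neo/- (0.0701), and 0.018 for Chd8 +/- (0.991). In Chd8 neo/neo it passed in 2 of 18 other fits, DESeq2 (0.0308) and edgeR without neo/neo library 3 (0.0300). The highest adjusted p was 0.247, and edgeR gave 0.118 in these groups alone and 0.107 with the Xist level as a covariate. In Chd8 neo/- it passed in 2 of 18, these groups alone (0.0424) and the Xist covariate (0.0381), both by edgeR. The highest adjusted p there was 0.270. Ggnbp1, its overlapping neighbour, differed from wildtype by 0.16 and -0.11 on the log2 scale in these genotypes.

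Among the anti-apoptotic genes, Bcl2 was at 24, 24.9 and 27.5 CPM in wildtype and 29.7, 28.6 and 27.9 CPM in Chd8 +/-. These libraries did not overlap, but the log2 difference of 0.17 had an edgeR adjusted p of 0.701. In the hypomorphs the log2 differences of Bcl2 were 0.0066 (Chd8 neo/neo) and 0.0023 (Chd8 neo/-), with intervals of -0.13 to 0.14 for both. Bcl2l1 was at 97.8 to 113 CPM in wildtype, 106 to 112 in Chd8 +/-, 94.0 to 103 in the Chd8 neo/neo group and 104 to 109 in Chd8 neo/-. Mcl1 had a mean of 177 CPM in wildtype, 182 in Chd8 +/-, 177 in the Chd8 neo/neo group and 183 in Chd8 neo/-, and its log2 intervals against wildtype lay within -0.094 and 0.14. Bcl2l2 had an unadjusted p of 0.0421 by edgeR in Chd8 neo/- (log2 difference -0.13, adjusted p 0.169), with overlapping libraries at 25 to 29.7 CPM in wildtype and 23.9 to 25.1.

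The BH3-only genes gave 0 calls as well, by edgeR and by DESeq2. Bcl2l11 was at 29.5, 25.7 and 29.8 CPM in wildtype and 31.5, 33.9 and 29.7 CPM in Chd8 neo/neo, with overlapping libraries and a log2 difference of 0.16 (edgeR adjusted p of 0.137). Bmf in Chd8 neo/neo lay below the wildtype in every library, at 22.2 to 25 and 25.3 to 27.4 CPM, with a log2 difference of -0.12 and an edgeR adjusted p of 0.500. Bid and Bad differed from wildtype by -0.088 to 0.10 on the log2 scale over the 3 genotypes, with overlapping ranges throughout.

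Hrk varied most between libraries of a genotype. It was at 2.72, 4.13 and 2.70 CPM in wildtype, 3.99, 2.25 and 4.38 in Chd8 +/-, 1.63, 1.72 and 3.37 in the Chd8 neo/neo group and 2.71, 2.27 and 3.28 in Chd8 neo/-. Neo/neo library 3 lay apart from the other 2 of its group. The log2 difference of Chd8 neo/neo from wildtype was -0.50 with an interval of -1.21 to 0.21, so that a change as large as the -0.79 of the cKO was within the interval. Without neo/neo library 3 it was -0.93 with an edgeR adjusted p of 0.0538.

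**Figure D5:**
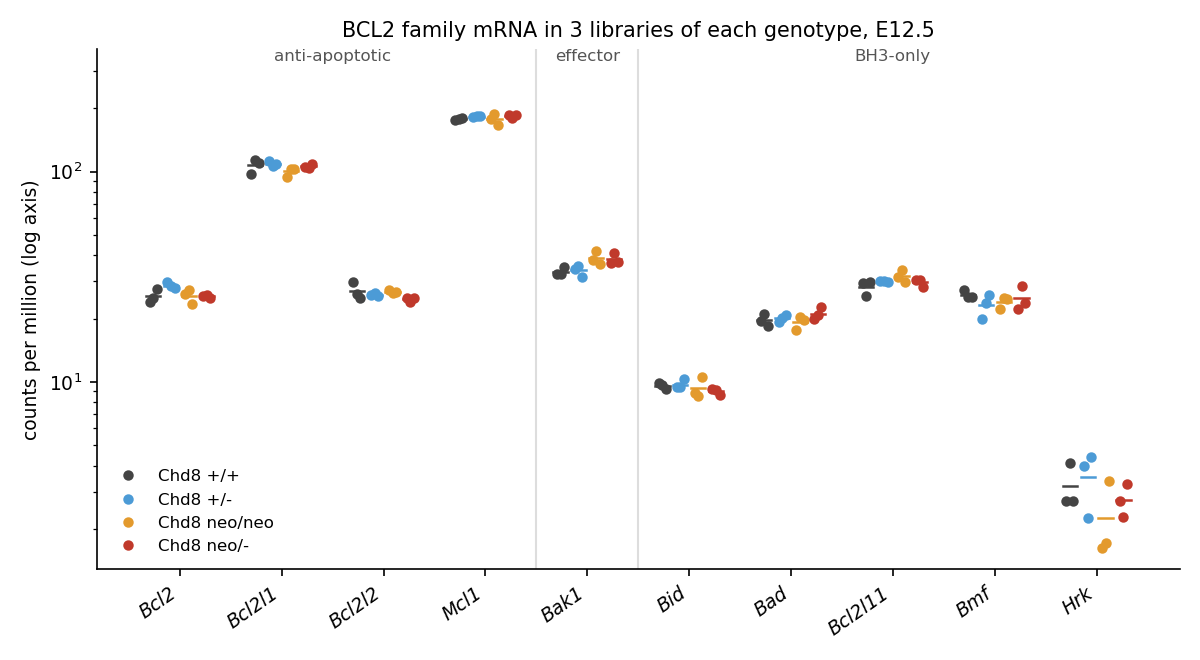
CPM (log axis) of the 10 genes in each of 3 libraries of each genotype at E12.5 (Chd8 +/+ black, Chd8 +/- blue, Chd8 neo/neo orange, Chd8 neo/- red), with a bar at the group mean. Bak1 lies above the wildtype range in all libraries of both hypomorphs, and the 4 groups overlap for Bid, Bad and Hrk.

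The hypomorphs were also compared with Chd8 +/- and with each other. Between Chd8 neo/neo and Chd8 +/- edgeR called 0 of 10 members, against 5.28% of all genes. DESeq2 called 0 members, against 1788 of 14973 genes with an adjusted p. In this comparison same-numbered libraries deviated together, with correlations of 0.108, 0.195 and 0.199 across genes, although no label pairs them. With the number as a block edgeR called 572 genes instead of 994 and again 0 members. Unadjusted p was under 0.05 for 3 members, against 23.2%: Bcl2 and Bcl2l1 lower (log2 differences of -0.17 and -0.12) and Bak1 higher (0.20). Without neo/neo library 3, Bak1 (0.23) and Hrk (-1.09) passed, with edgeR adjusted p of 0.0481 and 0.0328. That fit called 2100 of 19045 genes. Each of the 2 members passed in 1 of 18 other fits, with adjusted p as high as 0.318 for Bak1 and 0.523 for Hrk. Between Chd8 neo/- and Chd8 neo/neo edgeR and DESeq2 called 0 of 10 members, against 0.0159% of all genes by edgeR, and no member had an unadjusted p under 0.05 (8.43% of all genes). DESeq2 called 27 of 16190 genes there.

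Neuronal markers differed between these genotypes, with 3 of 8 lower in Chd8 neo/neo than in wildtype (Map2, Dcx and Elavl4) and 2 in Chd8 neo/- (Map2 and Dcx). Their summed level was 3889 to 4575 CPM in wildtype, 3221 to 3746 in the Chd8 neo/neo group and 3544 to 3977 in Chd8 neo/-. Sox2 of 6 progenitor markers and Pax6 of 5 telencephalic markers were higher in Chd8 neo/neo, and Kdr of 6 endothelial markers was lower there. In Chd8 neo/-, 2 of 8 erythroid markers (Hbb-bh1 and Hba-x) were higher, with summed levels of 3257 to 3962 CPM in wildtype and 4531 to 7023 CPM there. Their part in the values of Bak1 and Hrk was not tested.

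Other genes of the pathway were taken from lists of relatives, of the death machinery and of regulators of BCL2 proteins. Of 14 other BCL2 relatives, 9 passed the filter, and edgeR called 3 of these lower in the cKO and 0 higher: Bcl2l12 (log2 change -0.28), Bnip1 (-0.30) and the BH3-only gene Bik (-1.04, at 0.809 CPM in Ctrl and 0.394 in cKO). Over all genes edgeR called 5.70% lower and 5.75% higher. DESeq2 called Bcl2l12 and Bnip1 and gave Bik no adjusted p. Bik passed without Ctrl library 2, and without any other single library its edgeR adjusted p was 0.0516 to 0.136. The 5 that did not pass it were Bcl2a1a, Bcl2a1b, Bcl2a1d, Bcl2l10 and Bcl2l14. The median log2 difference of the 9 was -0.072. At E12.5 0 of the 9 were called in a mutant against wildtype by edgeR, with unadjusted p under 0.05 for 1 of them in Chd8 +/-, 2 in the Chd8 neo/neo group and 1 in Chd8 neo/-, and DESeq2 called 0 of them in each. Of all genes, 6.33, 25.2 and 26.5% had an unadjusted edgeR p under 0.05 in these comparisons.

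Downstream of the pore, edgeR called 1 of 21 death machinery genes higher and 1 lower in the cKO, and DESeq2 called both and also Birc6. The share of all genes called by edgeR was 11.4%. Apaf1, the scaffold of the apoptosome that activates caspase-9, was at 69.1, 75.9 and 71.4 CPM in Ctrl and 90.9, 101 and 102 CPM in cKO, a log2 change of 0.44 (edgeR adjusted p of 0.00247). Mtch2, the outer membrane receptor for cleaved BID, changed by -0.24 (0.0237 by edgeR). The median over the 21 was 0.0089. At E12.5 Casp6 rose by 0.18 in the Chd8 neo/neo group and by 0.25 in Chd8 neo/-, and Birc6, a large inhibitor of caspases, fell by 0.23 on the log2 scale in Chd8 neo/-.

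Of 32 regulators, edgeR called 4 higher and 1 lower in the cKO, with the largest change in Foxo3, and DESeq2 called these 5 and also Pim1 and Ywhab. By edgeR, 5.75% of all genes tested were called higher and 5.70% lower. Foxo3, a transcription factor known to induce Bcl2l11 and Bbc3, was at 20.6, 22.5 and 23.8 CPM in Ctrl and 43.8, 57.2 and 58.6 CPM in cKO, a log2 change of 1.25 ± 0.11 (edgeR adjusted p of 1.99e-04). In the same libraries Bcl2l11, with the FOXO motif printed above, had the overlapping levels given there. Foxo1 changed by 0.34, Akt1, a kinase that phosphorylates BAD and FOXO factors, by 0.22, and Rps6ka1, another BAD kinase, by 0.29, while Atf4, a stress transcription factor, fell by 0.40 on the log2 scale. At E12.5 Foxo3 differed from wildtype by 0.056 in Chd8 +/-, by -0.079 in the Chd8 neo/neo group and by 0.029 in Chd8 neo/-, none called by edgeR. Pim1, a BAD kinase, rose in Chd8 neo/neo (0.28) and Chd8 neo/- (0.36). E2f1 and Mycn also rose (0.25 each) and Mapk10 and Ywhag fell (by 0.36 and 0.21 on the log2 scale) in Chd8 neo/neo. In Chd8 neo/- Huwe1 and Usp9x, a ligase and a deubiquitinase that act on MCL1 protein, fell by 0.21 and 0.15, and Dynll2 by 0.14. Mcl1 mRNA had no called change there by edgeR or DESeq2, and these data do not measure MCL1 protein. Of the genes of these lists and the direct p53 targets that edgeR called against control, Bbc3, Pmaip1, Apaf1, Foxo3 and Atf4 in the cKO and Pim1, Casp6 and Birc6 in Chd8 neo/- also passed with any single library left out. Each of the others, among them Bax in the cKO and Casp6 and Pim1 in Chd8 neo/neo, did not pass without at least 1 of the libraries.

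For the 3 members called by edgeR in the cKO, the genes with the most similar pattern were sought by the root-mean-square difference of log2 group means, centred within each stage, over the 6 groups and 17703 genes. Bak1 was closest to Mindy4 (0.00727), Trpt1 (0.0106) and Olfr1372-ps1 (0.0119), while its own deviation from its mean was 0.108. Bcl2 was closest to Gm22772 (0.0193), Patj (0.0272) and Snai2 (0.0274), with an own deviation of 0.130. Hrk was closest to A630014C17Rik (0.0333), Phf24 (0.0640) and Sv2b (0.0646), with an own deviation of 0.304. Gm22772 and A630014C17Rik had under 1 CPM in wildtype, so that their means rest on few reads, and the members' differences at E10.5 were among the values matched.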

How the data were processed

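mRNA was sequenced as paired-end reads in 18 libraries, 2 runs each. The deposited values are whole-number counts of fragments per gene, for which the authors trimmed reads with Trim Galore 0.4.1, aligned them to GRCm38.p4 (mm10) with TopHat2 2.1.0 and counted them with featureCounts 1.5.0. Per the file headers the E12.5 counts were made without a strand option, so fragments in bases shared by opposite genes cannot be told apart; the options of the E10.5 counts are not given in the sources used here. Runs of a library were summed, and 46005 of 46603 gene identifiers matched a symbol.

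CPM and RPKM (with the exon lengths in the files) were computed from these counts. Genes passing filterByExpr were tested with edgeR 4.0.16 (TMM scaling, quasi-likelihood, robust), with all 12 E12.5 libraries in one fit and the 6 E10.5 libraries in another. Calls used a Benjamini-Hochberg adjusted p under 0.05 over all genes tested, and errors are SE or 95% intervals from that fit. On simulated counts with a log2 change of 1 in 200 genes, edgeR recovered 97% for cKO against Ctrl (18243 genes) and 98% for Chd8 neo/- against Chd8 +/+ (18596 genes). Changes as small as those of Bcl2 and Bak1, or at counts as low as those of Hrk at E10.5, were not simulated. These rates therefore do not apply to them. Alternatives were DESeq2 1.42.0, RLE scaling, no filter on low counts, a replicate block, the groups compared alone, Xist as a covariate and each library left out. The study states that replicates came from different litters. Same-numbered Chd8 neo/neo and Chd8 +/- libraries deviated together (correlations of 0.108, 0.195 and 0.199 across genes). The labels do not pair these libraries, and the source of the correlations was not tested.

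The members and gene lists were chosen with earlier results of these data known; 1 regulator, 1 death machinery gene and 1 erythroid marker are not reported here and were left out of their lists' counts and sums. Named genes are all members, Chd8, the p53 targets, up to 4 called genes of a list in a comparison with control (where a list had 5, the fifth was added after its values were seen), and the 3 genes nearest in pattern to a called member.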

Additional observations from a re-analysis of the deposited data

Results flagged for a closer look

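Chd8 itself differed between the mutants, with a log2 difference of 0.33 between Chd8 neo/neo and Chd8 +/- and of -0.49 between Chd8 neo/- and Chd8 neo/neo (edgeR adjusted p of 0.00897 and 2.39e-04). For Chd8 neo/neo and Chd8 +/- the order of the counts was the reverse of that of CHD8 protein reported by the study. It was also the reverse of the study's order of Chd8 transcripts by quantitative RT-PCR in younger embryos. Among genes that accompany the BCL2 family, Chd8 neo/neo and Chd8 +/- differed in Bcl2l12 by 0.25, in E2f1 by 0.27 and in Mapk10 by -0.38 on the log2 scale (edgeR adjusted p of 0.0267, 0.0267 and 0.0270).

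For 4 genes, all Chd8 neo/neo libraries lay on one side of wildtype at E12.5 and all cKO libraries on the other side of Ctrl at E10.5. Atf4 differed by 0.056 in Chd8 neo/neo and by -0.40 in cKO. Bcl2l12 differed by 0.13 and -0.28, E2f1 by 0.25 and -0.10, and Foxo1 by -0.23 and 0.34, in the same order. By edgeR, Atf4, Bcl2l12 and Foxo1 were called in the cKO and not in Chd8 neo/neo, and E2f1 in Chd8 neo/neo and not in the cKO. DESeq2 gave the same calls except that it called Foxo1 in both. The 4 genes were picked by this pattern, and its share over all genes was not counted. In the cKO alone, the libraries of the 2 groups did not overlap for 32.2% of all genes. The difference between the stages was not tested for these genes.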

How the results depend on the processing

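RLE scaling changed no member call. Members called in the cKO were 3 as reported, with the replicate block and with the Y-linked covariate (chosen after seeing the data), 4 with DESeq2 and with no filter on low counts, and 0 to 3 with a library left out. At E12.5 the count of 0 became 1 with DESeq2 (Chd8 neo/neo) and, for Chd8 neo/-, 1 in the groups alone and 1 with Xist; with a library left out it was 0 to 1 in Chd8 neo/neo and 0 to 2 against Chd8 +/-. The replicate block gave Bcl2l1 an edgeR adjusted p of 0.0398 and Hrk 0.0533 in the cKO and changed no other member call. Only for Chd8 neo/neo against Chd8 +/- did every same-numbered pair correlate above 0.1; for cKO against Ctrl the values were -0.103, -0.018 and 0.114.

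Over all genes, Chd8 +/- gave 4 calls, 15 with DESeq2, 2 with the replicate block, 1 in the groups alone and 2 to 6 with a library left out. Chd8 neo/neo gave 1534, 430 in the groups alone, 1004 with Xist and 435 to 2605, the highest without neo/neo library 3. Chd8 neo/- gave 2158 and 1015 to 2574. Chd8 neo/neo against Chd8 +/- gave 994, 1788 with DESeq2, 572 with the block, 42 in the groups alone, 326 with Xist and 23 to 2100. Chd8 neo/- against Chd8 neo/neo gave 3, 27 with DESeq2, 9 with no filter, 1 in the groups alone and 1 to 23. The cKO gave 2110 and 538 to 2483. The causes were not tested.

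No called member changed sign. Of differences near 0, Bcl2 turned with no filter (-0.0063 in Chd8 neo/neo, -0.0065 in Chd8 neo/-). With Xist, Bcl2 (-0.042), Bcl2l2 (0.003), Bid (0.0017) and Bad (0.0032) turned in Chd8 neo/neo, and Bcl2 (0.10), Bak1 (0.049) and Bmf (-0.047) in Chd8 neo/- against Chd8 neo/neo. With a library left out, log2 differences crossed 0 in Chd8 +/- for Bcl2l1 (-0.029 to 0.078), Bcl2l2 (-0.11 to 0.0097), Bak1 (-0.018 to 0.068), Bid (-0.031 to 0.038), Bad (-0.0076 to 0.085) and Hrk (-0.032 to 0.40). In Chd8 neo/neo they did for Bcl2 (-0.045 to 0.074), Bcl2l2 (-0.058 to 0.049), Mcl1 (-0.052 to 0.032), Bid (-0.15 to 0.014) and Bad (-0.07 to 0.028). In Chd8 neo/- they did for Bcl2 (-0.045 to 0.067), Bcl2l1 (-0.077 to 0.033), Bmf (-0.18 to 0.0037) and Hrk (-0.36 to 0.023). Against Chd8 +/-, Bmf in Chd8 neo/neo spanned -0.053 to 0.14. Between the hypomorphs, Bcl2 spanned -0.06 to 0.044, Bak1 -0.066 to 0.04, Bid -0.11 to 0.059 and Bmf -0.055 to 0.13. In the cKO, Mcl1 spanned -0.014 to 0.045, Bad -0.12 to 0.10 and Bmf -0.17 to 0.0094. Hrk is limited by depth, with 29 to 60 fragments in an E10.5 library.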
